A study of Mus musculus with 16 samples.

Results

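Snai1, Snai2, Zeb1, Zeb2, Twist1 and Twist2 encode the Snail, Zeb and Twist transcription factors, and the chromatin around these 6 genes, of 21883 annotated protein-coding mouse genes, is described here in cultured muscle stem cells. The genes were taken by name, with results of these data already known. Their peaks were chosen by position, and no measured level entered that choice. Overlapping or touching peaks from the 4 libraries that share an antibody were joined into 1 region. A region was given to one of the genes when it overlapped the gene body, or lay within 50 kb of it with that gene as the nearest protein-coding gene. This gave 98 of 60038 H3K27ac regions and 23 of 24420 MyoD regions.

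The cells were satellite cells, which are muscle stem cells, taken from the hindlimb of C57BL/6 mice and kept in culture. Libraries labelled LncMyoD-KD are knockdown cells, exposed for 48 h to small interfering RNA against LncMyoD, a long noncoding RNA gene that lies near Myod1. Libraries labelled Ctrl come from C57BL/6 satellite cells whose genotype is given as control. The treatment text is the same for every sample, so the agent given to control cells is unclear. The labels also give neither the age of the mice nor the origin of the replicates, be it 1 culture or several, so the spread between replicates may be technical. Chromatin was immunoprecipitated with an antibody against H3K27ac, a histone acetylation found at active promoters and enhancers, or against the muscle transcription factor MyoD, with 2 LncMyoD-KD and 2 control libraries per antibody.

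Snail proteins (Snai1 and Snai2) are zinc finger repressors that bind E-box DNA motifs, the letters CANNTG, and switch off epithelial genes such as the cadherin gene Cdh1. Zeb1 and Zeb2 are zinc finger and homeodomain repressors that bind related motifs and recruit CtBP corepressors. Twist1 and Twist2 are basic helix-loop-helix factors that pair with E proteins. MyoD belongs to the same helix-loop-helix class and also binds E-boxes with E protein partners, and in mouse muscle cells Snail, Zeb1 and Twist1 have each been described as restraining muscle genes that MyoD activates.

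The deposited lists held 54082 and 39964 H3K27ac peaks in LncMyoD-KD libraries 1 and 2, against 46259 and 53048 in control libraries 1 and 2. MyoD lists held 16524 and 13146 peaks in the LncMyoD-KD libraries, against 17818 and 17649 in the controls. LncMyoD-KD library 2 thus had the shortest list for both antibodies, and of the H3K27ac regions that 3 libraries shared, 5108 lacked only this library, against 80 to 934 for the other libraries. Read depth is unknown, and with no RNA data the fall of LncMyoD itself was not checked. All 10 satellite cell marker genes examined, Pax7, Myf5 and Myod1 among them, had an H3K27ac region of all 4 libraries within 1 kb of an annotated end. The same held for 2 of 8 fibro-adipogenic, 1 of 5 endothelial, 1 of 5 immune, 2 of 6 smooth muscle or pericyte and 1 of 4 Schwann cell markers, and Pdgfra, Lum, Ptprc and Myh11 had no H3K27ac region at all. The share of all protein-coding genes with such a region near an end is not given here.

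The 6 genes fell into 2 kinds. Snai1, Snai2, Zeb1 and Zeb2 each carried H3K27ac and MyoD peaks that were present in all 4 libraries of the antibody, while Twist1 and Twist2 had no peak of either antibody in any library within their windows. Zeb2 held 59 H3K27ac regions and 7 MyoD regions, Zeb1 held 30 and 10, Snai1 held 8 and 4, and Snai2 held 1 and 2. Only 9 protein-coding genes, 0.0411% of all, had more H3K27ac regions than Zeb2, and 99 had more than Zeb1. This rank counts every region, also the 28 at Zeb2 and 13 at Zeb1 that came from 1 library alone. Regions of all 4 libraries numbered 19 at Zeb2 and 15 at Zeb1, and no rank was computed for those. The stretch searched differed between them and was 212 kb for Zeb2, 284 kb for Zeb1, 89.4 kb for Snai2 and 48.0 kb for Snai1.

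**Figure D1:**
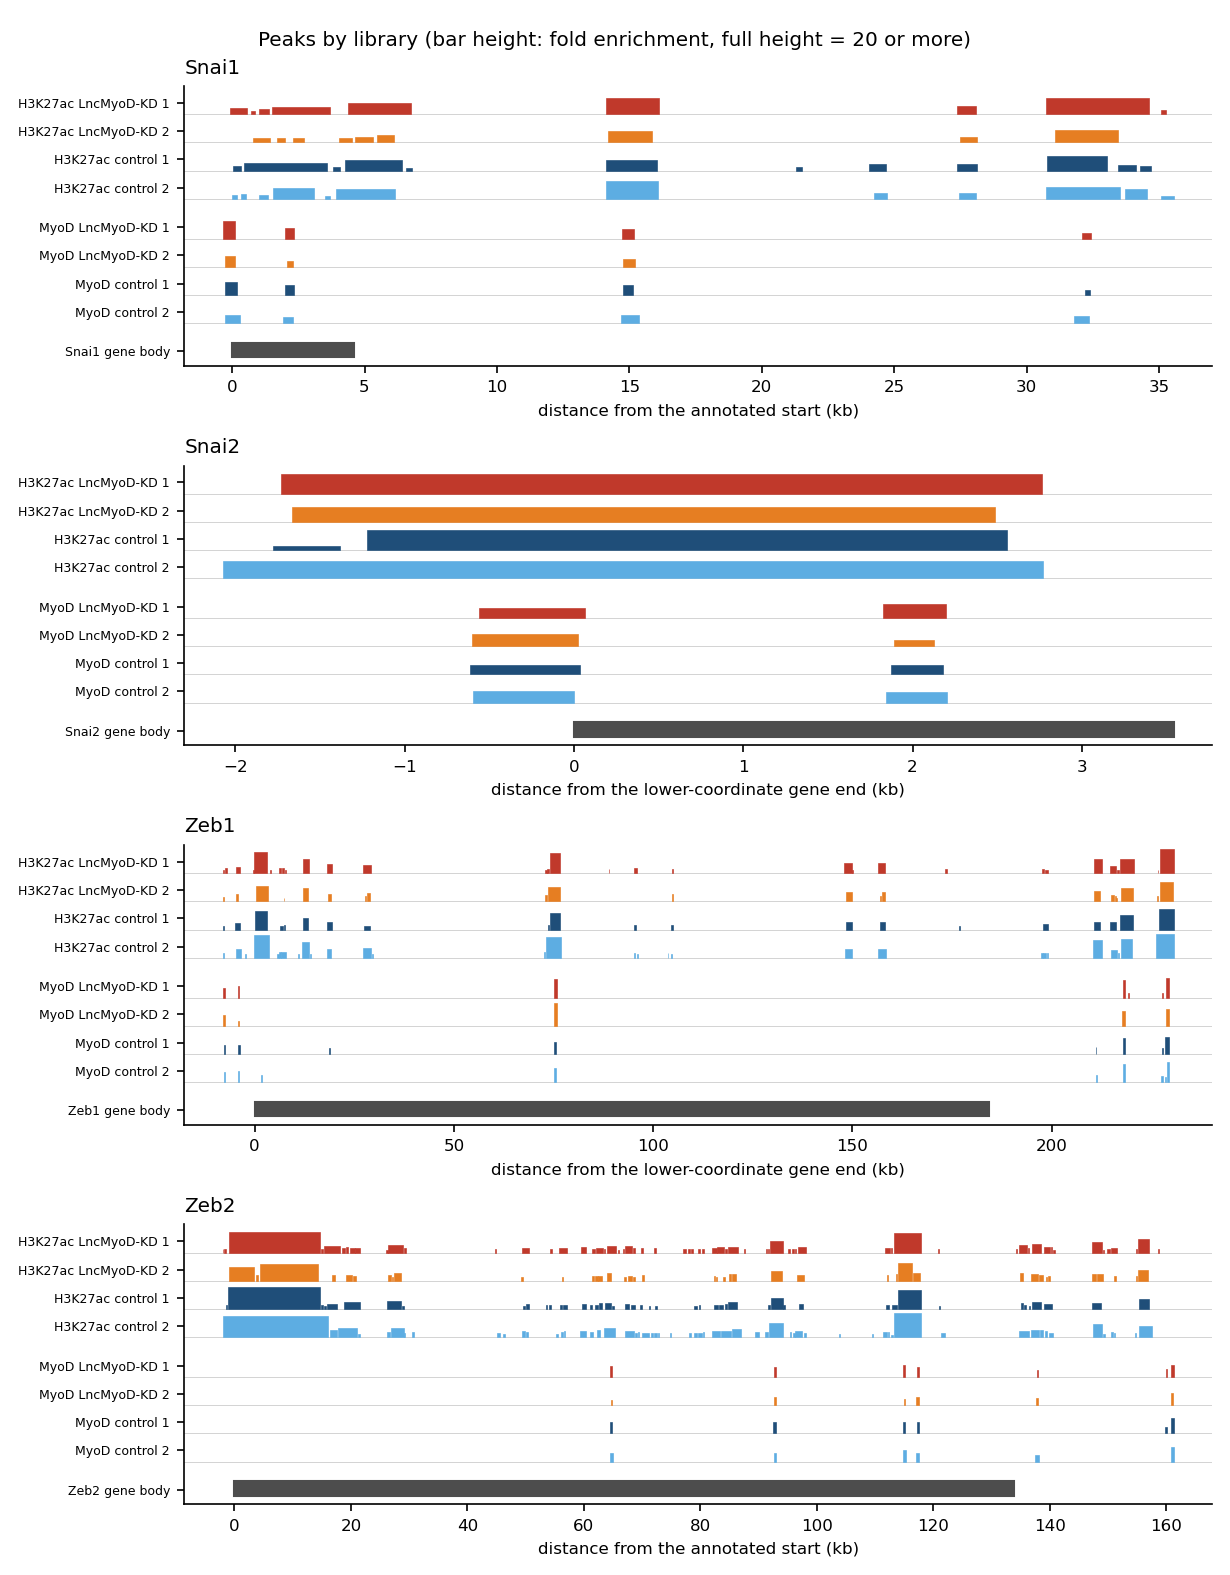
Peaks called around Snai1, Snai2, Zeb1 and Zeb2 in each library, against the distance in kb from the annotated start or, where the strand was not read, from the lower-coordinate gene end. Each bar is 1 peak, its height is the fold enrichment of that peak (full height at 20 or more), and the grey bar is the gene body. The taller bars recur in all 4 libraries, and the lower bars are often present in some libraries and missing in others.

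Snai1 is the founding Snail repressor of the epithelial-to-mesenchymal transition, and its promoter was occupied by MyoD. The gene lies on the plus strand at chr2:167538195-167542814 of the mm10 build. A MyoD region covered its start (chr2:167537831-167538481), with fold enrichments at the summit of 14.7 and 9.01 in LncMyoD-KD libraries 1 and 2, against 10.9 and 6.62 in control libraries 1 and 2. The summits lay 121 and 81 bp before the start in the LncMyoD-KD libraries, against 101 and 139 bp before it in the controls. The groups overlapped, with LncMyoD-KD library 1 highest and control library 2 lowest. Ranked among the MyoD regions of all 4 libraries, as a percentile from 0 to 100 within each library, it stood at 86.1 and 64.1 in the LncMyoD-KD libraries, against 69.2 and 25.2 in the controls, and the difference of means, 27.9 points, was the widest of the 15 such MyoD regions here although the groups overlapped.

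The promoters of 3 genes are shown because they stand for the 3 situations met among these genes: Snai1, with MyoD and H3K27ac peaks, Zeb2, with H3K27ac and no MyoD peak, and Twist1, with neither. Each is the 250 bases upstream of the annotated start, 5′ to 3′ on the gene's own strand, from RefSeq on GRCm38.p6, the assembly behind mm10. Capitals mark an E-box (CANNTG).
Snai1, plus strand, chr2:167537945-167538194: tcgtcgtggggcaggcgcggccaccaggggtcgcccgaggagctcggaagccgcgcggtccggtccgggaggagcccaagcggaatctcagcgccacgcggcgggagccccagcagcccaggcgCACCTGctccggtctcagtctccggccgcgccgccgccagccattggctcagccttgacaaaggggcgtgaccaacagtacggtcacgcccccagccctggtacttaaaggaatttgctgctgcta
Zeb2, minus strand, chr2:45117443-45117692: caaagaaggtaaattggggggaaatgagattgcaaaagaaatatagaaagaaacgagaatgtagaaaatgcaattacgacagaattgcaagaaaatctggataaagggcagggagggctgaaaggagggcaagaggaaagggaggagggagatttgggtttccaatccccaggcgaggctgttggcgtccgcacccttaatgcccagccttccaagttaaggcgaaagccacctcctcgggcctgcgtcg
Twist1, plus strand, chr12:33957421-33957670: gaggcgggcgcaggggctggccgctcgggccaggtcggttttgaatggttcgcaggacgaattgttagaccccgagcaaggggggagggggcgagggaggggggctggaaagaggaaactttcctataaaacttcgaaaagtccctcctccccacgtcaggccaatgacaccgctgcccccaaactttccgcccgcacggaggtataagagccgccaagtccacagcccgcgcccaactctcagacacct

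The Snai1 promoter held 1 E-box, CACCTG, at position 125 of the printed sequence, with its first base at position -126 from the start. CACCTG, read on the other strand as CAGGTG, is the core that Snail and Zeb proteins are known to bind. All 4 MyoD summits lay within 50 bases of that position, in the same region. The Zeb2 and Twist1 sequences held none, and neither did that of Twist2 (chr1:91801211-91801510). These counts cover 300 bases, from 250 before to 50 after the start, searched on both strands. By that window 72.3% of 32851 promoters in the RefSeq table held CANNTG, and 20.2% held CACCTG on either strand. Among the 950 promoters that overlapped a MyoD region of all 4 libraries, 85.4% held CANNTG and 28% held CACCTG. Another E-box, CAGCTG, was absent from the Snai1 promoter and was held by 16.3% of all promoters and 49.9% of those 950. A match describes letters and not a binding site. The 4 genes with a promoter sequence used were Snai1, Zeb2, Twist1 and Twist2.

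Snai1 carried MyoD at 3 further places. Inside the gene, at chr2:167540101-167540549, the fold was 8.93 and 4.70 in the LncMyoD-KD libraries, against 8.26 and 5.21 in the controls. Downstream by 10.1 kb, at chr2:167552888-167553543, it was 7.56 and 6.27, against 8.26 and 6.62 in the controls. In both places the 2 groups overlapped. The most distant region, 27.2 kb downstream at chr2:167569983-167570626, had a peak of fold 4.42 in LncMyoD-KD library 1 and none in library 2, against 3.97 and 6.29 in the controls.

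H3K27ac over the Snai1 start (chr2:167538124-167541899) was weaker in every library than over the annotated ends of Snai2, Zeb1 and Zeb2. Its highest fold was 5.82 and 4.11 in the LncMyoD-KD libraries, against 6.51 and 8.95 in the controls. To set libraries beside each other, the regions present in all 4 libraries were ranked within each library by highest fold, as a percentile from 0 to 100. On that scale the region stood at 24.3 and 8.11 in the LncMyoD-KD libraries, against 44.1 and 58.6 in the controls, without overlap. This difference of -35.2 percentile points was the widest among the H3K27ac regions of the 4 genes. Without control library 1 the region split, since a single wide peak of that library joins the smaller peaks of the others into 1 region. The value then read, 6.76, is that of a small piece (chr2:167538906-167539633). Its folds were 4.02 and 4.11 in the LncMyoD-KD libraries, against 3.27 in control library 2. The piece with the highest control library 2 peak kept folds of 5.82 and 4.02 in the LncMyoD-KD libraries, against 8.95 in control library 2. Next to the start itself a peak of fold 4.91 began 71 bp before it in LncMyoD-KD library 1, while the first peak of LncMyoD-KD library 2, of fold 4.11, began 794 bp past it. In control libraries 1 and 2 the first peaks began 34 and 2 bp past the start, with folds of 3.90 and 3.55. LncMyoD-KD library 2 was therefore the 1 library whose H3K27ac peaks did not touch the MyoD region of the promoter.

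The other Snai1 acetylation lay over the far end of the gene and downstream. Over the far end (chr2:167542010-167544987) the fold was 9.46 and 6.48 in the LncMyoD-KD libraries, against 9.11 and 7.99 in the controls. At 9.49 kb downstream (chr2:167552304-167554324), around the MyoD region at 10.1 kb, it was 13.6 and 9.23, against 8.73 and 15.1 in the controls. At 26.1 kb (chr2:167568935-167572908) it was 13.3 and 10.3, against 12.6 and 10.0 in the controls. None of these 3 separated the groups. A weak region 19.4 kb downstream (chr2:167562252-167562918) had no peak in either LncMyoD-KD library, against folds of 5.39 and 5.33 in the control libraries, and it kept that pattern with merging of peaks within 1000 bp and with stricter or equal-length lists. Of the downstream regions, 6 H3K27ac and 2 MyoD regions overlapped the long noncoding RNA gene Gm11476 (chr2:167553312-167607850), so their assignment to Snai1 rests on distance to protein-coding genes alone.

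Snai2, also called Slug, is the Snail repressor known from neural crest and from myogenic progenitors. It lies at chr16:14705852-14709395, and its strand was not read here. A single strong H3K27ac region of 4846 bp (chr16:14703777-14708622) covered its lower-coordinate end and most of the gene. Its highest fold was 16.2 and 12.9 in the LncMyoD-KD libraries, against 17.1 and 14.2 in the controls, so the second library of each group was the lower one. Nothing else was called within 50 kb on either side that belonged to Snai2. Per kb searched Snai2 was thus the sparsest of the 4 marked genes, with 1.12 H3K27ac regions per 100 kb, against 10.6 for Zeb1, 16.7 for Snai1 and 27.9 for Zeb2.

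That H3K27ac region held 2 MyoD regions. The MyoD region over the lower-coordinate end (chr16:14705236-14705915) had folds of 8.47 and 9.80 in the LncMyoD-KD libraries, against 7.60 and 9.94 in the controls. The MyoD region inside the gene (chr16:14707678-14708055) had folds of 11.4 and 5.49 in the LncMyoD-KD libraries, against 7.60 and 9.27 in the controls. The groups overlapped at both. Snai1 and Snai2 were the 2 genes of the set with a MyoD region of all 4 libraries within 1 kb of an annotated end.

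**Figure D2:**
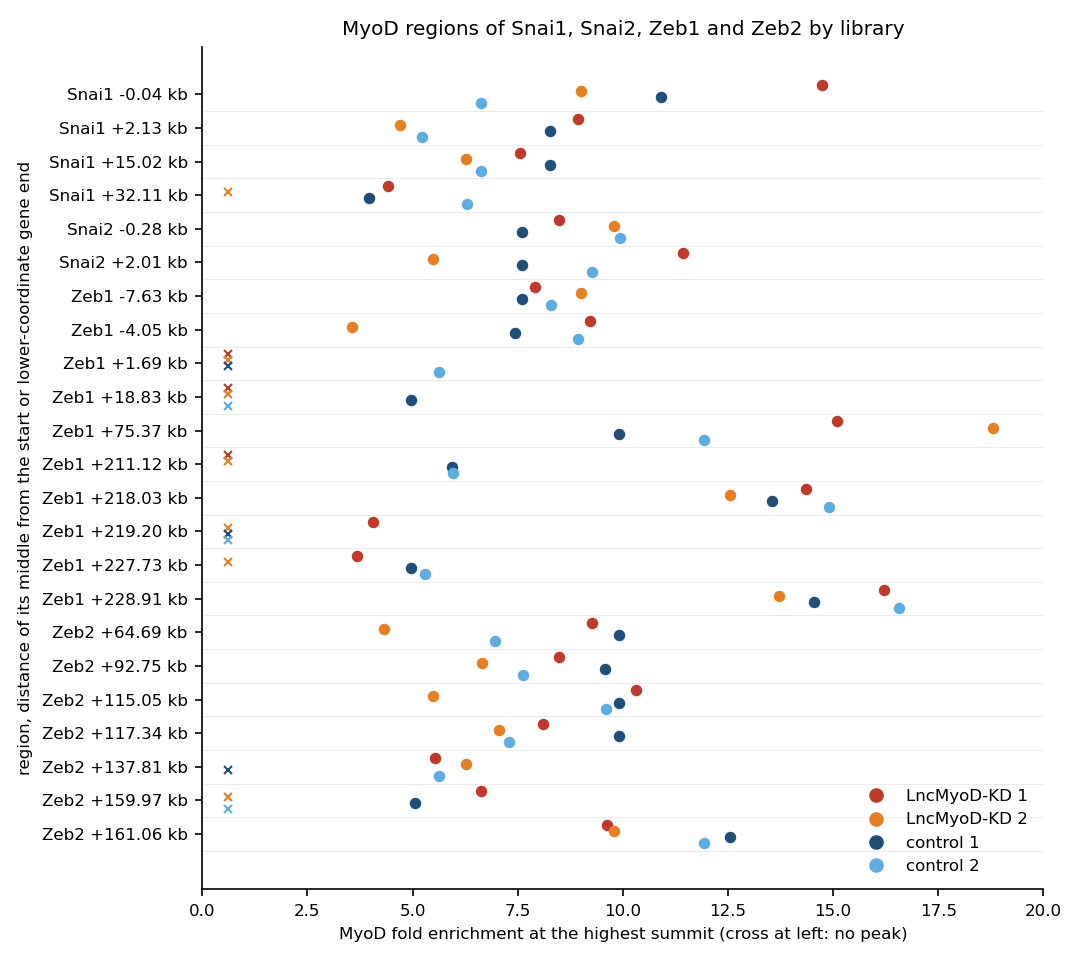
MyoD fold enrichment (horizontal axis, linear ratio over background at the highest summit) of the 23 regions, with 1 point per library and a cross at the left where a library had no peak. Regions are labelled by gene and by the distance of their middle, in kb, from the start (Snai1, Zeb2) or the lower-coordinate end (Snai2, Zeb1). At the Zeb1 region where the LncMyoD-KD folds reach 15.1 and 18.8 both LncMyoD-KD points lie to the right of both control points, and at the last Zeb2 region both lie to the left.

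Zeb1 spans chr18:5591327-5775468, and its strand was not read here. Its strongest H3K27ac was not over the gene but 42.0 kb past the higher-coordinate end (chr18:5817486-5821991), with folds of 20.01 and 16.2 in the LncMyoD-KD libraries, against 17.5 and 20.1 in the controls. The lower-coordinate end (chr18:5591256-5594966) came next, with 17.8 and 13.2, against 15.8 and 18.9 in the controls. Another strong interval lay inside the gene (chr18:5663940-5668132), with 16.6 and 12.1, against 14.1 and 17.8 in the controls. In all 3, LncMyoD-KD library 2 was lowest and the other libraries interleaved.

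That interval inside Zeb1 held the MyoD region with the wider of the 2 separations between groups. This region (chr18:5666321-5667075) had folds of 15.1 and 18.8 in the LncMyoD-KD libraries, against 9.91 and 11.9 in the controls. As percentiles among MyoD regions of all 4 libraries these were 87.1 and 96.2, against 61.4 and 76.7 in the controls, a difference of 22.5 points. It was the 1 MyoD region of 15 (6.67%) with both LncMyoD-KD percentiles above both control percentiles, where 16.4% of all 9958 such MyoD regions have that order. The difference was 14.4 points without control library 1 and 15.0 without LncMyoD-KD library 2. With 2 libraries against 2 an exact permutation test cannot go below 0.333, and no test was made.

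At 26.8 kb past the higher-coordinate end of Zeb1 lay a MyoD region of the control libraries alone (chr18:5802313-5802583), with no peak in either LncMyoD-KD library, against folds of 5.95 and 5.96 in the controls. It was the only one of the 23 MyoD regions with that pattern, which 4.53% of all MyoD regions show, and it held with merging of peaks within 1000 bp and with stricter or equal-length lists. The H3K27ac region around it (chr18:5801617-5803885) was present in every library, with folds of 11.8 and 8.34 in the LncMyoD-KD libraries, against 6.61 and 15.0 in the controls. No MyoD region of the 6 genes was confined to the LncMyoD-KD libraries, against 0.725% of all MyoD regions.

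Of the other MyoD regions of Zeb1, those with a peak in all 4 libraries showed no separation. The region at 44.3 kb past the gene (chr18:5819783-5820699), within its strongest H3K27ac, had folds of 16.2 and 13.7 in the LncMyoD-KD libraries, against 14.5 and 16.6 in the controls. The region at chr18:5809043-5809672 had 14.4 and 12.5, against 13.5 and 14.9 in the controls. Before the lower-coordinate end, the region at chr18:5583467-5583923 had 7.90 and 9.01, against 7.60 and 8.28 in the controls, and that at chr18:5587021-5587526 had 9.21 and 3.55, against 7.44 and 8.94 in the controls. Both of these lie in the long noncoding RNA gene Gm10125 (chr18:5491501-5592437), which overlaps the Zeb1 end. Another 3 Zeb1 regions came from 1 library each, with folds of 4.05 in LncMyoD-KD library 1, 4.96 in control library 1 and 5.63 in control library 2. The last of the 10, at chr18:5818831-5819286, had 3.68 in LncMyoD-KD library 1 and no peak in library 2, against 4.96 and 5.30 in the controls.

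Of the 30 H3K27ac regions of Zeb1, 15 were present in all 4 libraries, and their fold averaged over libraries ran between 3.29 and 18.4. The 15 others ran between 2.73 and 4.33. Of the 15 present in all 4 libraries, 2 stood higher in both LncMyoD-KD libraries (16.4% of all such regions do) and 2 lower (15.9% of all). The higher ones lay inside the gene. The first (chr18:5739307-5741247) had folds of 8.91 and 7.52 in the LncMyoD-KD libraries, against 6.14 and 7.40 in the controls, a percentile difference of 13.2 points. The second (chr18:5747645-5749637) had 8.37 and 7.77, against 6.14 and 7.40 in the controls, a difference of 12.2 points that was 6.68 without LncMyoD-KD library 2. The lower ones differed by -8.00 points at chr18:5808530-5811863 (11.8 and 11.1 in the LncMyoD-KD libraries, against 11.9 and 15.7 in the controls) and by -1.30 points at chr18:5609420-5610717. The -8.00 points became -4.12 without LncMyoD-KD library 1 and -3.81 without control library 2.

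Zeb2 encodes the repressor also known as Sip1, and lies on the minus strand at chr2:44983512-45117442. Its start was covered by a very wide H3K27ac region of 23586 bp (chr2:45095907-45119492). Of the 26130 H3K27ac regions of all 4 libraries only 10, or 0.0383%, were wider. Its highest fold was 17.5 and 14.1 in the LncMyoD-KD libraries, against 18.6 and 18.1 in the controls. The percentiles were 92.7 and 91.2, against 97.0 and 93.4 in the controls, a difference of -3.26 points without overlap. No MyoD region lay in it, in contrast to the Snai1 start, and it also covers the antisense gene Zeb2os (chr2:45111138-45114087), so signal of the 2 genes cannot be told apart there.

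MyoD was found elsewhere in and around Zeb2. The H3K27ac region of Zeb2 with the highest mean fold lay inside the gene (chr2:44999467-45004773), with 16.4 and 15.2 in the LncMyoD-KD libraries, against 15.8 and 21.6 in the controls, and it held 2 MyoD regions. The MyoD region at chr2:45002158-45002636 had folds of 10.3 and 5.49 in the LncMyoD-KD libraries, against 9.91 and 9.60 in the controls. Its neighbour at chr2:44999839-45000360 had 8.10 and 7.05, against 9.91 and 7.29 in the controls. Nearer the start, the region at chr2:45024472-45024910 had 8.47 and 6.66, against 9.58 and 7.62 in the controls, and that at chr2:45052486-45053022 had 9.28 and 4.31, against 9.91 and 6.95 in the controls. In none of these 4 did the percentiles of the groups separate.

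The MyoD region farthest downstream of Zeb2, 26.9 kb past its end (chr2:44956118-44956654), was the 1 of 15 (6.67%, with 15.9% over all such MyoD regions) that ranked lower in both LncMyoD-KD libraries. Its folds were 9.62 and 9.80 in the LncMyoD-KD libraries, against 12.6 and 11.9 in the controls, and its percentiles were 59.6 and 70.7, against 79.2 and 76.7 in the controls, a difference of -12.8 points that was -6.83 without LncMyoD-KD library 1. The summits of the 4 libraries fell within 4 bp of each other. It lies inside a 6622 bp H3K27ac region (chr2:44951872-44958493) that the same rule gave to another gene, Gtdc1. That H3K27ac region had folds of 17.8 and 16.7 in the LncMyoD-KD libraries, against 14.3 and 18.3 in the controls. A further 2 Zeb2 regions, both weaker, were irregular. The region at chr2:44957310-44957641 had peaks of fold 6.63 in LncMyoD-KD library 1 and 5.06 in control library 1 alone. That at chr2:44979352-44979910 had 5.53 and 6.27 in the LncMyoD-KD libraries, against no peak and 5.63 in control libraries 1 and 2.

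Among the 19 H3K27ac regions of Zeb2 present in all 4 libraries, 8 ranked lower and 2 ranked higher in both LncMyoD-KD libraries, where 15.9% of all such regions rank lower and 16.4% higher. The lower ones were the start region and 7 others, mostly weak. The widest differences were -18.5 points at chr2:45054213-45055538 (folds of 4.37 and 3.95 in the LncMyoD-KD libraries, against 4.83 and 5.92 in the controls), -14.1 points at chr2:45030462-45035412 (4.91 and 5.74, against 5.76 and 7.10 in the controls) and -12.5 points at chr2:45066808-45068173. The -18.5 points became -9.70 when peaks within 1000 bp were merged, and the -14.1 points became -3.47 and -23.8 without LncMyoD-KD libraries 1 and 2. The 2 higher ones lay downstream of the gene, at chr2:44980978-44982690 (15.2 points) and chr2:44959811-44962294 (7.21 points). The 15.2 points became 5.78 when peaks within 1000 bp were merged and 9.10 without LncMyoD-KD library 2. A region of the controls alone, at chr2:45037942-45038587, had no peak in the LncMyoD-KD libraries, against weak folds of 2.79 and 3.55 in the controls. It was lost when peaks within 1000 bp were merged, with peaks of −log10 q of at least 5, and with equal numbers of peaks per library.

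**Figure D3:**
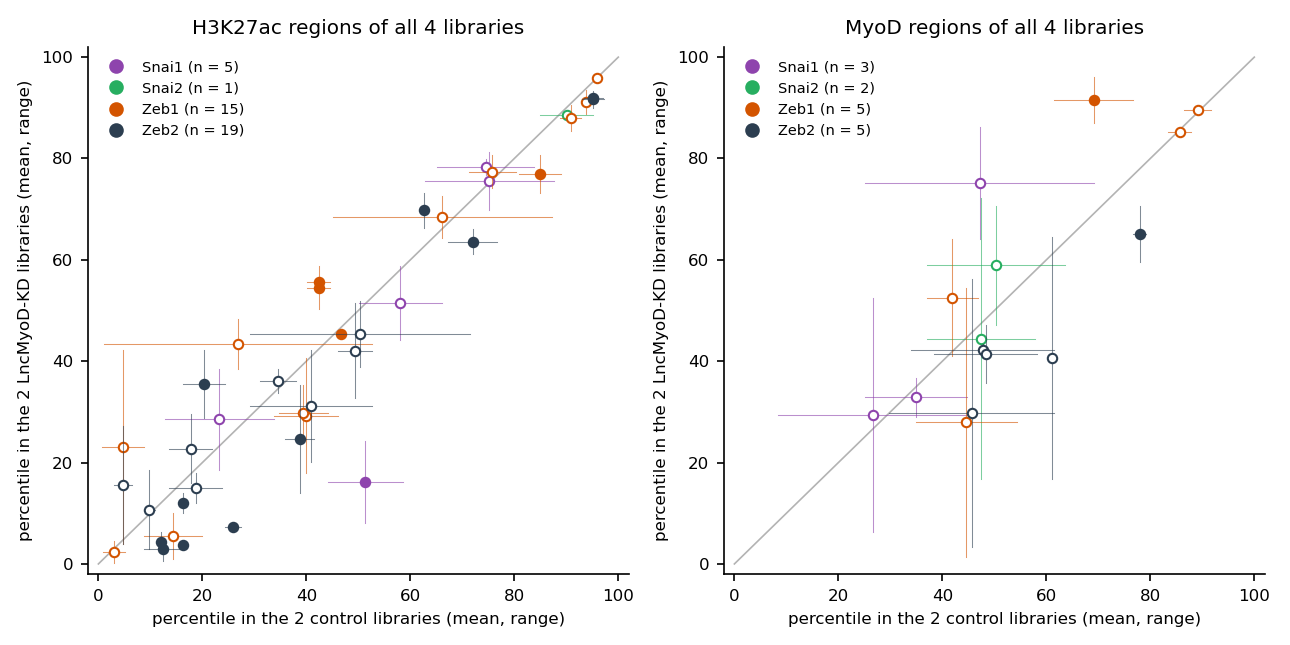
Percentile of each region of all 4 libraries, by highest fold within a library, with the mean of the 2 LncMyoD-KD libraries on the vertical axis against the mean of the 2 control libraries on the horizontal axis. Lines span the 2 libraries of a group, filled points are regions whose groups do not overlap, and the grey diagonal marks equal percentiles. The H3K27ac panel has 40 regions, with 11 filled points below and 4 above the diagonal, and the MyoD panel has 15, with 1 of each.

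Over the 4 marked genes every library had a peak in 40 of 98 H3K27ac regions (40.8%), against 43.5% of all H3K27ac regions. None was confined to the LncMyoD-KD libraries, against 0.768% of all, and 2 were confined to the controls, against 1.46% of all. Of the 40, 11 ranked lower without overlap (27.5%), against 15.9% of all 26130 such regions, and 4 ranked higher (10%), against 16.4%. The lower ones were 8 of Zeb2, 2 of Zeb1 and 1 of Snai1, and the higher ones 2 of Zeb1 and 2 of Zeb2. The median percentile difference was -2.80 points, against 0.156 over all regions. Leaving out 1 library moves these counts, because 1 library then stands for its group. Among the regions present in every library left, 17 of 41 and 21 of 45 ranked lower without LncMyoD-KD libraries 1 and 2. Without control libraries 1 and 2 it was 25 of 43 and 16 of 43. Over all such regions 31.4% to 34.1% were then called lower. In the same 4 settings 9 of 41, 9 of 45, 11 of 43 and 12 of 43 ranked higher, with 30.5% to 35.8% of all such regions then called higher.

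The H3K27ac regions that came and went followed single libraries. Of the 98, 42 (42.9%, against 33.3% of all) had a peak in 1 library alone, 17 in LncMyoD-KD library 1 and 0 in library 2, against 6 and 19 in control libraries 1 and 2. At Zeb2 this left 41 and 21 regions with a peak in LncMyoD-KD libraries 1 and 2, against 28 and 43 in the controls. At Zeb1 there were 23 and 15, against 18 and 23 in the controls. At Snai1 there were 6 and 5, against 7 and 7 in the controls. Leaving out a library moved the count of group-only regions accordingly. Regions of the knockdown alone numbered 19 of 101 without LncMyoD-KD library 2 (16.9% of all regions then have this pattern) and 6 of 95 without control library 2 (2.78%). Regions of the controls alone numbered 9 of 89 without LncMyoD-KD library 1 (11.9%), 21 of 96 without control library 1 (14.6%) and 10 of 95 without control library 2 (6.98%). The length of the lists moves with these counts, and its part in them was not tested.

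In bases covered by H3K27ac peaks, Zeb2 had 62.3 and 38.5 kb in the LncMyoD-KD libraries, against 51.4 and 65.6 kb in the controls. Zeb1 was covered over 32.7 and 23.0 kb, against 28.3 and 34.3 kb in the controls. Snai1 had 12.6 and 7.83 kb, against 13.0 and 11.9 kb in the controls, and Snai2 4.49 and 4.15 kb, against 4.17 and 4.85 kb in the controls. As a share of all bases in the list, the 4 genes together took 0.195% and 0.196% in the LncMyoD-KD libraries, against 0.205% and 0.219% in the controls. For MyoD the share was 0.133% and 0.135%, against 0.125% and 0.138% in the controls. The groups did not overlap in the H3K27ac share, by a margin smaller than the gap between the 2 control libraries, and they overlapped in the MyoD share.

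**Figure D4:**
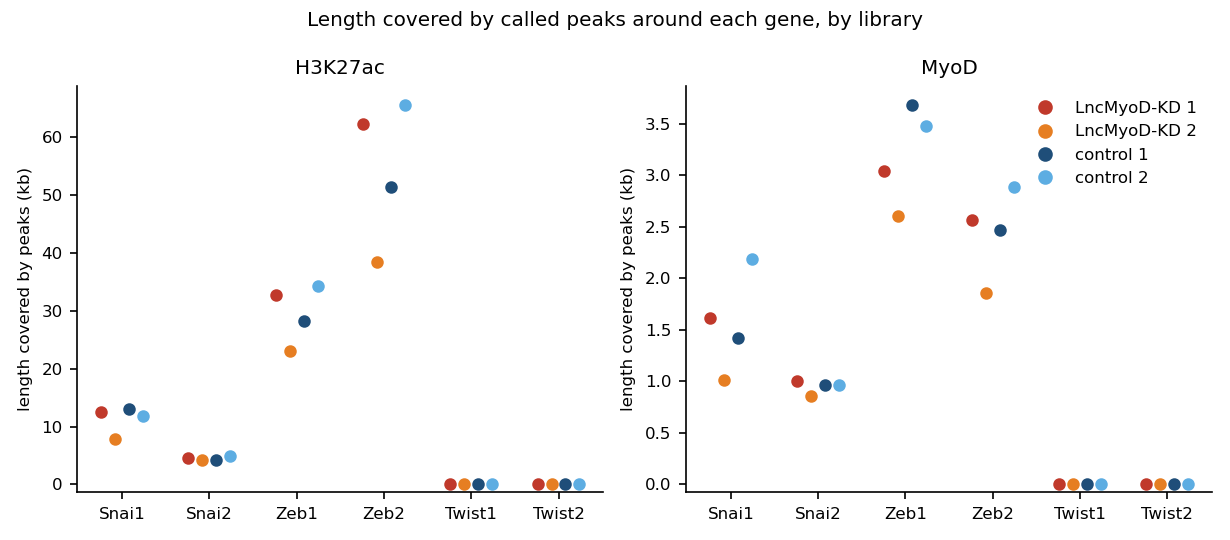
Length in kb covered by H3K27ac peaks (left) and MyoD peaks (right) in the regions of each gene, with 1 point per library and LncMyoD-KD libraries left of control libraries. Zeb2 has the most H3K27ac and Zeb1 the most MyoD, LncMyoD-KD library 2 is lowest at each of the 4 marked genes, and Twist1 and Twist2 are at 0 in all libraries.

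MyoD regions at these genes almost always shared at least 1 base with an H3K27ac peak. Of the 23 MyoD regions, 22 shared bases with H3K27ac peaks of all 4 libraries, where 51.4% of all MyoD regions do. The exception was the Snai1 start, which touched H3K27ac peaks of 3 libraries. Among the 15 MyoD regions of all 4 libraries, 14 shared bases with H3K27ac peaks of every library, against 73.6% over all such regions. Of the 16 MyoD regions with a peak in both LncMyoD-KD libraries, 15 overlapped H3K27ac in both (93.8%, against 72.5% over all such regions), and 18 of the 18 with a peak in both control libraries did (74.6% over all). Where the centre of the MyoD region had to lie inside an H3K27ac peak, the counts were 11 of 16 and 15 of 18. With at least 50% of the MyoD region covered they were 11 and 16. Shares over all MyoD regions were not computed for these stricter rules. Conversely 16 of the 40 H3K27ac regions of all 4 libraries held a MyoD region (40%, against 44.7% over all). Distance to a gene and the number of H3K27ac regions nearby differ between these genes and the rest, and their part in these shares was not tested.

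MyoD regions of all 4 libraries made up 15 of the 23 (65.2%, against 40.8% of all MyoD regions), and 3 came from 1 library alone (13.0%, against 30.8% of all). Their mean fold had a median of 8.44, against 8.34 over all 9958, a difference of little size. The summits of the 4 libraries spanned 4 to 350 bp in these 15 regions, with a median of 62 bp, against 79 bp over all. Among MyoD regions present in every library left, 7 of 15 ranked lower and 3 higher without LncMyoD-KD library 1. Without LncMyoD-KD library 2, 2 of 17 ranked lower and 5 higher. Without control library 1, 3 of 16 ranked lower and 4 higher, and without control library 2, 5 of 15 ranked lower and 5 higher. Of all such MyoD regions 31.1% to 34.6% were then called lower and 31.6% to 34.4% higher. MyoD regions of the controls alone numbered 3 of 22 without LncMyoD-KD library 1 (14% of all MyoD regions then have this pattern). They numbered 3 of 23 without control library 1 (15.9%) and 2 of 22 without control library 2 (15.7%). The equivalent H3K27ac regions had a median mean fold of 6.32, against 7.56 over all, and a median width of 2032 bp, against 1676 bp.

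Twist1 and Twist2 are mesodermal factors known to hold back muscle differentiation in mouse cells. Twist1 (chr12:33957671-33959831) had no region in the 60.2 kb searched. The nearest H3K27ac region lay 80.1 kb away at Hdac9, and the nearest MyoD region 75.9 kb away at Ferd3l. Twist2 (chr1:91801461-91848034) had none in 137 kb, and the nearest H3K27ac and MyoD regions lay 107.5 and 108.3 kb away at Hdac4. They share this with 36.3% of protein-coding genes, which had no H3K27ac region, and 59.7%, which had no MyoD region. A peak list gives no value where no peak was called, so signal below the threshold of the peak caller goes unlisted.

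A window of 20 kb in place of 50 kb left 15 of the 23 MyoD regions and 88 of the 98 H3K27ac regions, and dropped the control-only MyoD region of Zeb1 and the lower-ranked one of Zeb2, while 100 kb gave 27 and 104. Just inside the 50 kb limit lay the Zeb1 H3K27ac region at 42.0 kb and the Zeb1 MyoD region at 44.3 kb. Just outside lay a Zeb1 MyoD region at 55.2 kb (chr18:5535691-5536112), with 7.74 and 5.88 in the LncMyoD-KD libraries, against 6.61 and 10.3 in the controls. A Zeb2 H3K27ac region at 64.0 kb (chr2:45181440-45182158) had 4.91 and 4.97, against 4.65 and 4.44 in the controls.

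Among epithelial genes that Snail and Zeb proteins are known to repress, few had constant acetylation near an end. Of 21 listed, Cdh1, Epcam and Ocln among them, 12 had an H3K27ac region and 9 had none, where 36.3% of all protein-coding genes have none, and only Patj, a polarity gene, had one of all 4 libraries within 1 kb of an end. Their 52 H3K27ac regions included 21 of all 4 libraries (40.4%, against 43.5% of all regions), 0 confined to the LncMyoD-KD libraries (0.768% of all) and 1 confined to the controls (1.46% of all), at Patj. Patj also had a control-only MyoD region, at chr4:98420945-98421271, overlapping that H3K27ac region, with folds of 5.62 and 6.29 in the controls. Esrp2, an epithelial splicing regulator, had another control-only MyoD region, and the junction gene Tjp1 had the 1 MyoD region of the list confined to the LncMyoD-KD libraries, with folds of 4.79 and 4.70. Of the 27 MyoD regions of the list, 2 were thus control-only and 1 knockdown-only, beside 4.53% and 0.725% of all MyoD regions. Of 19 mesenchymal genes, 17 had H3K27ac regions, 65 of 146 of them in all 4 libraries, and 11 genes, Vim, Cdh2 and Sparc among them, had one near an end. For neither list is the share of all protein-coding genes with one near an end given here. Of these 146, 1 was confined to the LncMyoD-KD libraries, at Tnc, and 4 to the controls, beside the same 0.768% and 1.46% of all regions. Of their 42 MyoD regions, 1 was knockdown-only and 5 control-only, beside 0.725% and 4.53% of all. Among H3K27ac regions of all 4 libraries, 2 of 21 epithelial ones ranked lower (9.52%) and 6 higher (28.6%). Of the 65 mesenchymal ones 13 ranked lower (20%) and 8 higher (12.3%), beside 15.9% and 16.4% of all such regions. These differences were not tested.

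Most genes for the repressors' partners carried H3K27ac near an annotated end in every library. Of 18 corepressors and partners, 15 had an H3K27ac region of all 4 libraries near an end, including the CtBP genes Ctbp1 and Ctbp2, the deacetylase genes Hdac1 and Hdac2, and the demethylase gene Kdm1a. Whether this and the like counts below exceed the share over all protein-coding genes was not tested. Their 187 H3K27ac regions included 1 confined to the LncMyoD-KD libraries (0.768% of all H3K27ac regions) and 5 to the controls (1.46%), and their 39 MyoD regions 0 (0.725% of all MyoD regions) and 4 (4.53%). None of the 18 had a MyoD region of all 4 libraries near an end. Of 11 regulators of Snail protein stability, such as the kinase gene Gsk3b and the ubiquitin ligase gene Fbxl14, 10 had such an H3K27ac region, with 0 of 67 regions confined to the LncMyoD-KD libraries (0.768% of all) and 2 to the controls (1.46%). Of 19 genes of inducing signals, among them the TGF-beta receptor genes Tgfbr1 and Tgfbr2, 12 had one, with 0 of 108 regions confined to the LncMyoD-KD libraries and 1, at the ligand gene Tgfb2, to the controls, beside the same shares of all regions. The related Snail-type genes Snai3, Scrt1 and Scrt2 had 2 H3K27ac regions in all, 0 of them in all 4 libraries, and a single MyoD region, at Snai3, that was in all 4.

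The 2 other sets of transcription factors were set beside the repressors. The E protein, Id and musculin genes, whose products pair with or titrate MyoD and Twist, had 48 of 127 H3K27ac regions in all 4 libraries (37.8%), and the Runx and nuclear factor I genes 87 of 261 (33.3%), against 40.8% for the repressors. The share of these ranked lower in both LncMyoD-KD libraries was 18.8% for the E protein set and 23.0% for the Runx set, against 27.5% for the repressors. The share ranked higher was 10.4% and 13.8%, against 10%. Over all H3K27ac regions 43.5% were in all 4 libraries, and of those 15.9% ranked lower and 16.4% higher. Each of the sets thus lay above the share of all regions for lower ranks and under it for higher ranks. These differences between sets were not tested.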

How the data were processed

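Chromatin immunoprecipitation with tagmentation of antibody-bound chromatin gave the libraries, per the labels' protocols. The submitters' processing notes name MACS2 2.1.1, Bowtie2 2.3.2, bedtools 2.26.0, SAMtools 1.3 and Picard 2.9.2, with the mm10 build. Tool options and the pairing of inputs with libraries are not given in the sources read. Of the 16 samples, 8 inputs were not analysed. The authors called peaks separately in each library. Each deposited peak carries a fold enrichment at its summit (a linear ratio), −log10 of its p-value and q-value, and a score. A fold is the authors' value, used to describe and rank peaks within a list.

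Merging (gap 0 bp), assignment and ranking were done in Python 3.11.15 with pandas 2.3.3, and checked on simulated data. At least 1 shared base counted as presence. Genes came from the RefSeq table of GRCm38.p6. Percentiles were taken over regions of all 4 libraries, so each ranked list has the same length.

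The members, the gene lists and the rule for named regions were chosen with earlier results of these data known. The rule names, per gene, regions at the start, with the highest mean fold, of 1 group alone, or with ranks that do not overlap. No test was made, since 2 libraries against 2 cannot reach an exact p under 0.333. Alternatives were the merge gap, stricter and equal-length lists, windows of 20 and 100 kb, the nearest gene of any type, the overlap rule and leaving out each library.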

Additional observations from a re-analysis of the deposited data

How the results depend on the processing

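No paired analysis was possible because the values come from no test to which the replicate number could be added as a block. Whether libraries with the same replicate number share cells or a culture is also not given in the labels, so a pairing could not be justified from them. Across 14 counts and all alternatives, 105 of 142 recomputed counts stayed within 1.5 times the reported one. When peaks within 1000 bp were merged, H3K27ac regions numbered 46 and control-only ones 1 (1.2% of all regions then have this pattern), since neighbours fuse. With peaks of −log10 q of at least 5, H3K27ac regions numbered 56, with 1 knockdown-only (0.697% of all then) and 1 control-only (0.985%). Of the 27 in all 4 libraries, 6 ranked lower (15.4% of all such regions). Of the 22 MyoD regions then left, 2 were control-only (5.37% of all). Control-only H3K27ac regions numbered 1 with equal numbers of peaks per library (1.66% of all then) and 1 with the nearest gene of any type (1.46% of all). With a window of 20 kb, MyoD regions numbered 15, with 0 control-only (4.53% of all) and 0 ranked lower (15.9% of all such regions). Leaving out 1 library at a time gave 89 to 101 H3K27ac regions, 41 to 45 of them in all libraries left, 0 to 19 knockdown-only, 2 to 21 control-only, 16 to 25 ranked lower and 9 to 12 ranked higher. Over all H3K27ac regions the shares were then 1.61% to 16.9% knockdown-only, 1.61% to 14.6% control-only, 31.4% to 34.1% lower and 30.5% to 35.8% higher. For MyoD it gave 22 to 23 regions, 15 to 17 in all libraries left, 0 to 1 knockdown-only, 1 to 3 control-only, 2 to 7 ranked lower and 3 to 5 ranked higher. The shares over all MyoD regions were then 2.3% to 8.64%, 7.56% to 15.9%, 31.1% to 34.6% and 31.6% to 34.4%, in the same order of patterns. Co-occupied MyoD regions numbered 15 to 20 in the LncMyoD-KD libraries and 18 to 21 in the controls. With peaks of −log10 q of at least 5 they numbered 11 and 15. A group that loses a library needs peaks in 1 library only, which changes the regions that can count. The number of such regions and the share over all MyoD regions are not given for these settings. These counts therefore do not show whether co-occupancy changed. The percentile difference at the Snai1 start ran between -43.8 and -23.6 when 1 LncMyoD-KD library or control library 2 was left out. Without control library 1, whose wide peak joins the others, the region split, and 6.76 was the value of a small piece of it. The difference was -11.0 when peaks within 1000 bp were merged, and with the stricter q the region was no longer in all libraries. The causes of the other changes were not tested. Depth is unknown, which limits any reading of a missing peak.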

Other observations

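The microRNAs of the miR-200 family are known to repress Zeb1 and Zeb2 messages, and Zeb proteins to repress the miR-200 genes. They were looked at after the other values were seen. Their mature sequences are shown, from RefSeq, because the seed (bases 2 to 8, in capitals) divides the family.
miR-200b-3p: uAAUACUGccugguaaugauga
miR-200c-3p: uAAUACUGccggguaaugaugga
miR-429-3p: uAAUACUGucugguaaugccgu
miR-141-3p: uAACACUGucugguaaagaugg
miR-200a-3p: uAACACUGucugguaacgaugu
The seed AAUACUG is shared by miR-200b-3p, miR-200c-3p and miR-429-3p, and AACACUG by miR-141-3p and miR-200a-3p. No peak of either antibody lay on a miR-200 gene in any library. The chromosome 4 cluster (Mir200b, Mir200a and Mir429) was 21.0 to 22.8 kb from the nearest H3K27ac region, which had folds of 6.37 and 5.74 in the LncMyoD-KD libraries, against 6.32 and 6.51 in the controls. The chromosome 6 cluster (Mir200c and Mir141) was 4.19 to 4.60 kb from the nearest H3K27ac region, with folds of 11.8 and 7.67 in the LncMyoD-KD libraries, against 8.62 and 10.4 in the controls. The nearest MyoD region of the chromosome 6 cluster, 17.1 to 17.5 kb away, had folds of 9.58 and 12.5 in the LncMyoD-KD libraries, against 13.2 and 10.6 in the controls. The groups overlapped at all 3.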
